A study of Mus musculus with 20 samples.

Results

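The 68 genes described here are the histone genes of the Hist1, Hist2, Hist3 and Hist4 clusters, out of 20377 genes measured by RNA sequencing of mouse bone marrow cells. They were chosen by name alone: every table row whose symbol starts with Hist1h, Hist2h, Hist3h or Hist4h, and, where a symbol had several rows, the row with the largest total count (77 rows gave 68 genes). By class they were 6 linker histone H1 genes, 18 H2A, 19 H2B, 12 H3 and 13 H4 genes. By cluster 54 lay in Hist1 on chromosome 13, 10 in Hist2 on chromosome 3, 3 in Hist3 on chromosome 11 and 1 in Hist4 on chromosome 6.

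The mice were males of the 129S4 strain, 4 months old, either wild-type or Fancd2-/-, which lack a DNA repair gene of the Fanconi anemia pathway. From weaning at 3 to 4 weeks they ate placebo chow or chow with 300 mg of oxymetholone, a synthetic androgen, per kg, for 3 months. KSL cells (cKit+ Sca1+ Lin-), which hold blood stem and progenitor cells, gave 3 libraries for each of 4 groups: wild-type on placebo, wild-type on oxymetholone, Fancd2-/- on placebo and Fancd2-/- on oxymetholone, each library a pool of 5 mice. Erythroblasts (Ter119+, CD71 high, FSC high), which are early red cell precursors, came from wild-type mice only and gave 3 placebo and 3 oxymetholone libraries of 1 mouse each. Whole bone marrow gave 1 combined library from 5 mice for each genotype, both on placebo. All RNA was selected with oligo(dT) beads, which capture poly(A) tails.

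Replication-dependent histone genes make the proteins that wrap newly copied DNA: H2A, H2B, H3 and H4 form the core of the nucleosome and H1 binds the linker DNA between nucleosomes. Their mRNAs are made mainly in S phase and, unlike nearly all other mRNAs, end in a conserved stem-loop in place of a poly(A) tail; the stem-loop is bound by the protein Slbp. Some members can also be read through to a polyadenylation signal further downstream, and such transcripts are known from cells that stop dividing and differentiate. A library made with oligo(dT) beads therefore sees the tailed form of these genes and little of the stem-loop form.

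The stem-loop is shown first because it separates the usual histone mRNA end from the ends that oligo(dT) can capture. A 16-base stem-loop lay within 200 bases of the stop codon in 51 of the 61 genes whose coding region could be placed on the mm9 genome, at a distance of 23 to 58 bases (median 31). The search used a set pattern with few free bases, so the 10 genes without a match may carry other forms. The matches took 4 forms, with the paired arms in capitals and the loop in lower case, 5′ to 3′.

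Form in 33 genes (5 H1, 13 H2A, 9 H2B, 6 H3): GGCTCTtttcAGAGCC
Form in 9 genes (1 H1, 1 H2A, 4 H2B, 3 H3): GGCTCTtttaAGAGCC
Form in 7 genes (all H4): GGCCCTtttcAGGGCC
Form in 2 genes (both H4): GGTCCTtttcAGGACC

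Among these matches the forms followed the classes: the matched H4 genes carried arms that no matched H1, H2A, H2B or H3 gene carried. The table's own rows ended before or at the stem-loop in 30 of the 51 genes, 1 to 50 bases past it in 9, and over 100 bases past it in 12. In 31 genes the row was the coding region only. A polyadenylation signal (AATAAA or ATTAAA) lay in the last 40 bases of 13 of the 61 rows: Hist1h1c, Hist1h1d, Hist1h1t, Hist1h2ae, Hist1h2bc, Hist1h2be, Hist1h2bp, Hist1h2bq, Hist1h4h, Hist1h4i, Hist2h2be, Hist3h2a and Hist3h2ba. The median row length was 912 bases with the signal and 393 without it. The split by signal was made with the levels of these genes known, so it is given as a description with no test. The last bases of 5 such rows follow, on mm9 and the plus strand, with the signal in capitals; these 5 genes carried most of the histone reads in erythroblasts.

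Hist1h1c, chr13:23832207-23832236: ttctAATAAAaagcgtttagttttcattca
Hist3h2a, chr11:58770154-58770176: caaaATTAAAggaagttccaatc
Hist2h2be, chr3:96027636-96027661: tattAATAAAgttaccgattagtttc
Hist1h2bc, chr13:23784327-23784349: atatAATAAAtgtcatgtaaagc
Hist3h2ba, chr11:58763005-58763032: tattAATAAAtttggttcaattttggcc

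Histone genes are near copies of each other, and this set a limit on detection besides the poly(A) selection. Of the 68 genes, 60 had at least 1 count and 8 were at 0 in every library. None of those 8 has a 51-base window, the read length, that occurs once in the genome. A further gene without a unique window had 1 count, and 40 genes had under 50% unique windows. The counts of such genes are uncertain, since how reads with several matches were counted is not given in the sources used here. Of the 4 genes with the most reads, Hist1h1c had a total of 44147, Hist3h2a 18765, Hist2h2be 13537 and Hist1h2bc 13400, together 69.4% of the 129431 reads on all members.

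Each library held 10.8 to 121.3 M counted reads in KSL, 17.2 to 20.8 M in erythroblasts and 100.2 (wild-type) or 106.9 M (Fancd2-/-) in whole marrow. Fancd2 itself, the deleted gene, was at 12.3 to 16.5 counts-per-million (CPM) in wild-type KSL libraries and 4.69 to 6.16 in Fancd2-/- ones, and at 31.3 and 8.53 CPM in the marrow libraries. The sort labels matched their markers: the summed level of 8 KSL markers was 2140 to 3470 CPM in KSL and 0.8 to 2.07 in erythroblasts, and that of 8 erythroblast markers was 105000 to 124000 CPM in erythroblasts and 34.4 to 193 in KSL. The 193 was Fancd2-/- placebo library 2. Fancd2-/- placebo library 3 stood apart in its relation of read counts to transcript length, with a slope of -0.191 against -0.0452 to 0.103 in the other KSL libraries and 0.27 to 0.338 in erythroblasts.

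The summed level of all members was far higher in erythroblasts than in KSL cells, with whole marrow between them. It was 524 ± 68.6 CPM (SD, n = 6, range 421 to 629) in erythroblasts, 72.3 ± 10.9 CPM (SD, n = 12, range 53.6 to 91.7) in KSL, 232 CPM in wild-type marrow and 216 CPM in Fancd2-/- marrow. Without the trimmed-mean scaling between libraries the erythroblast sum was 284 and the KSL sum 101 CPM, which keeps the order but narrows the gap. In these bulk samples, a change in the share of cells that express a gene and a change in RNA per cell cannot be told apart.

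H1 genes had the largest mean summed level in every population, mostly through Hist1h1c. The order did not hold in each library: in wild-type erythroblast oxymetholone library 1, H1 summed to 206 CPM and H2B to 215. The erythroblast and KSL means were 217 and 27.6 CPM for H1, 188 and 20.4 for H2B, 97.4 and 18.8 for H2A, 16 and 4.11 for H4, and 5.94 and 1.51 for H3. Core histones are made in equal amounts as proteins, but the 12 H3 and 13 H4 genes together gave a small share of these reads. In whole marrow the order differed, since H2A (59.5 CPM wild-type, 49.8 Fancd2-/-) stood above H2B (47.6 and 47.1). By cluster, the 3 Hist3 genes held 24.2% to 27% of the members' reads in the erythroblast libraries, 14.3% to 21.1% in the KSL libraries and 11.1% to 11.8% in marrow.

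**Figure D1:**
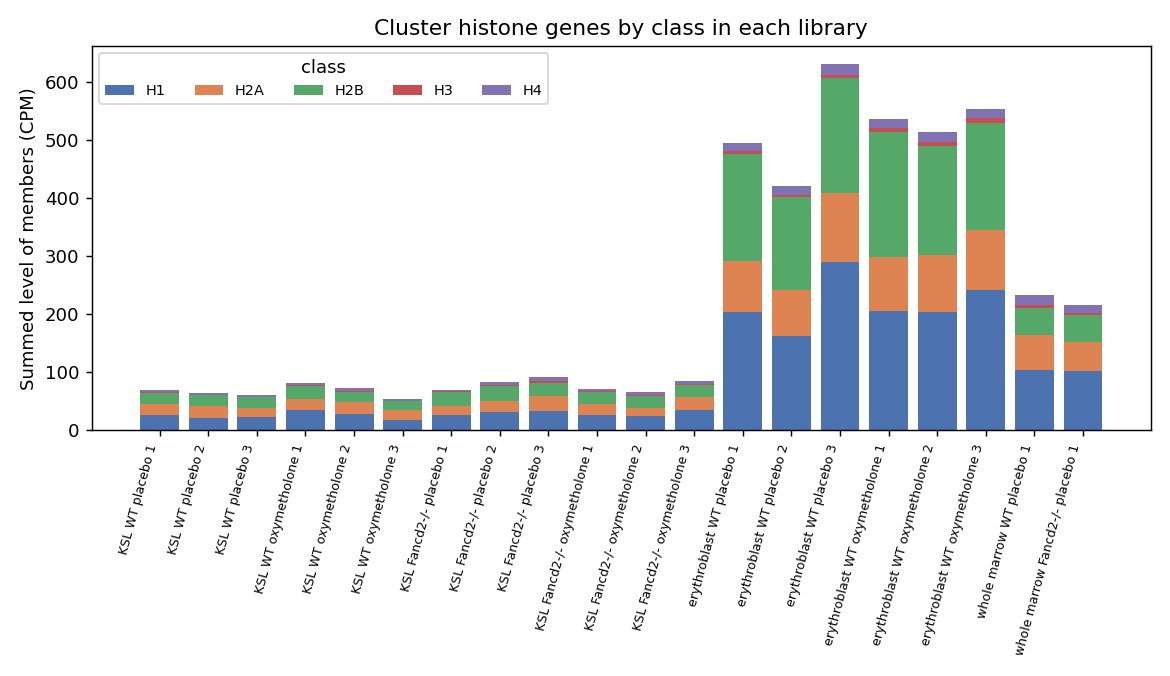
Summed level of the histone genes in each of 20 libraries in CPM (vertical axis), stacked by class (colours). The 6 erythroblast bars sit between 421 and 629 CPM, the marrow bars at 232 and 216, and the 12 KSL bars between 53.6 and 91.7.

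The 13 rows with a polyadenylation signal held 90.4% to 92.4% of the members' summed level in erythroblasts, 67.2% to 88.1% in KSL and 72.9% (wild-type) or 78.2% (Fancd2-/-) in whole marrow. Their summed level was 479 ± 64 CPM (SD, n = 6) in erythroblasts, 57.4 ± 6.92 CPM (SD, n = 12) in KSL and 169 CPM in each marrow library. The 48 rows without the signal summed to 36 to 52.5 CPM in erythroblasts, 7.71 to 29.8 in KSL and 62.4 or 46.2 in marrow. Some of the 48 end far past the stem-loop, Hist1h2ac by 2010 bases and Hist1h1e by 1154. The split thus describes row ends and does not separate tailed from untailed mRNA. The wild-type marrow library was above all others in rows without the signal, while the Fancd2-/- one lay within the erythroblast range. Among KSL libraries the 29.8 CPM was again Fancd2-/- placebo library 3; the other 2 libraries of that group had 8.27 and 15.9 CPM.

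**Figure D2:**
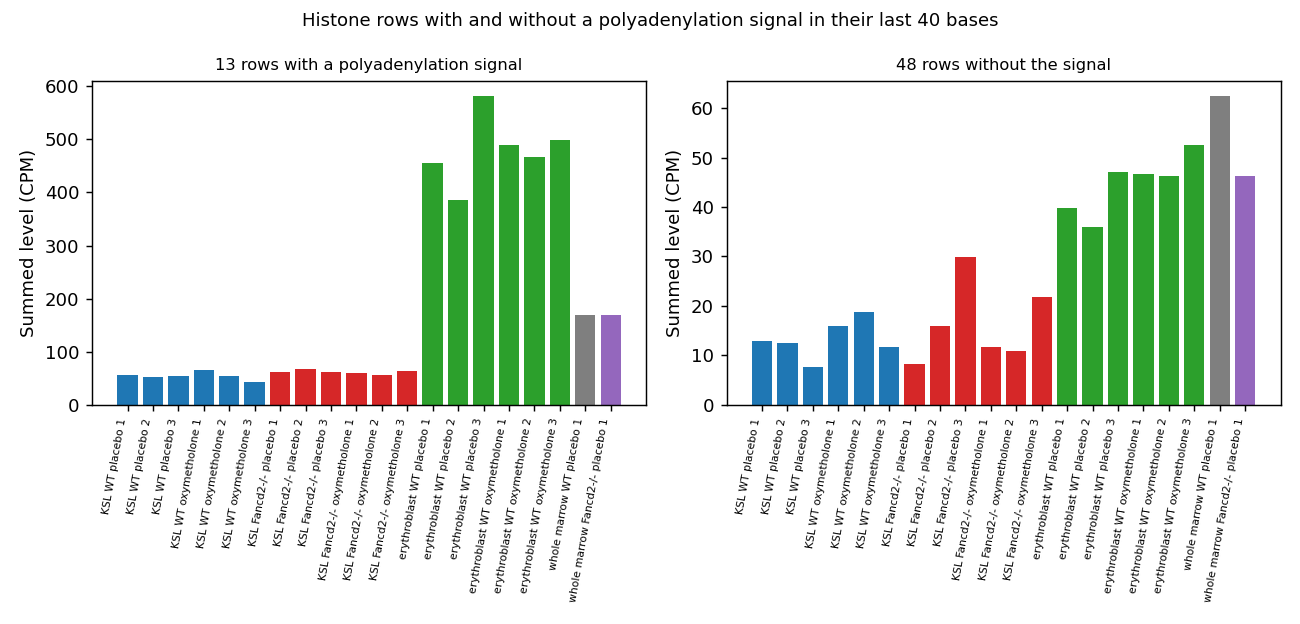
Summed level in CPM (vertical axes, which differ in scale) of the 13 rows with a polyadenylation signal in their last 40 bases (left) and of the 48 rows without it (right), in each of 20 libraries, coloured by population and genotype. Erythroblasts exceed both marrow libraries on the left (169 CPM in each marrow library), while the wild-type marrow library is highest on the right at 62.4 CPM.

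Levels per kb of transcript allow for row length but not for the share of unique windows. On that scale the linker gene Hist1h1c had the highest mean in erythroblasts, at 125 CPM per kb. The H2B gene Hist3h2ba followed at 73.1 CPM per kb, then Hist1h2bc (H2B) at 54.6, Hist3h2a (H2A) at 44.2, Hist2h2be (H2B) at 34.2 and Hist1h4i (H4) at 16.3. In KSL the means were 13 CPM per kb for Hist1h1c, 13 for Hist1h2bc, 6.01 for Hist3h2a, 5.06 for Hist1h4i, 3.18 for Hist2h2be and 0.17 for Hist3h2ba. On this scale Hist3h2ba was thus the lowest of these 6 genes in KSL and the second highest in erythroblasts. The 6 are the members with the highest means in erythroblasts, so the choice bears on these ranks. Unique windows made up 91.6% of Hist1h1c, 76.8% of Hist3h2ba, 48.7% of Hist1h2bc and 60.2% of Hist1h4i. For Hist3h2a and Hist2h2be they made up 97.9% and 99.3%. The ranks can therefore shift with how reads with several matches were counted.

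Between wild-type erythroblasts and wild-type KSL cells on placebo, 19 members had enough reads to be tested and 17 were higher in erythroblasts at an adjusted p under 0.05 (edgeR quasi-likelihood test, Benjamini-Hochberg over 12538 genes), none lower. Over all genes tested 37.2% were called higher and 53.7% lower (91% in all). On oxymetholone, in libraries that share none with the placebo comparison, 24 members were tested, 21 were higher and 1 was lower, against a background of 91.5% called (37.5% higher, 53.9% lower).

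The count minimum matters to these numbers, because a gene absent from KSL could only be tested where erythroblasts had it. Of the 19 tested on placebo, 15 also passed a minimum in the KSL libraries alone, which at their greater median depth was lower than the fit's. Of these 15, 13 were called higher: 5 of 5 H1 genes, 3 of 5 H2A, 3 of 3 H2B and 2 of 2 H4 genes. No H3 gene was among them. The median log2 change of the 15 was 2.14, against -0.67 over all genes. The other 4 (Hist1h2bp, Hist1h3g, Hist2h2bb and Hist3h2ba) passed only through erythroblasts, so their being higher was set by the minimum and their values are given without a p. The H4 gene Hist1h4d, among the 15 (KSL counts of 14, 61 and 4), met only the lower minimum in KSL. In the fit it passed through erythroblasts, so its being higher was set in the same way. On oxymetholone 18 of 24 passed in KSL alone, with 15 called higher and 1 lower. Among the 15, Hist1h3c (KSL counts of 15, 41 and 6) passed the fit's minimum only through erythroblasts. The 1 called lower, Hist1h2af, passed it only through KSL. On that diet Hist1h2bp, Hist1h3g, Hist1h4d, Hist2h4, Hist3h2ba and Hist4h4 also passed only through erythroblasts. The other 49 of the 68 members were not tested on placebo, nor were 44 on oxymetholone. On the deposited scaled matrix, where the median over all genes tested was -1.96, limma called 10 of 16 tested members on placebo, 9 higher and 1 lower, and 19.7% of all genes higher and 72.8% lower.

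Hist3h2ba (NM_030082, chr11:58762413-58763032, plus strand, an H2B gene) had the largest fitted change of the members tested. Its level was 0.0205, 0.0659 and 0.127 CPM in the 3 wild-type placebo KSL libraries (counts of 1, 11 and 2) and 39.2, 34.1 and 49.6 CPM in the placebo erythroblasts (counts of 363, 384 and 529). No KSL library of any of the 4 groups exceeded 0.161 CPM, so the populations did not come near each other. The fitted log2 change was 9.39 ± 0.29 (SE, n = 3 per group) on placebo and 8.82 ± 0.25 on oxymetholone; on both diets the gene passed the count minimum only through erythroblasts. Whole marrow, a mix that holds red cell precursors, had 4.71 (wild-type) and 5.01 (Fancd2-/-) CPM.

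Hist3h2a (NM_178218, chr11:58768187-58770176, plus strand), in the same cluster, is an H2A gene on the same strand, and was expressed in both populations. It was at 13, 13.3 and 12.8 CPM in wild-type placebo KSL and 80.5, 71.6 and 110 CPM in placebo erythroblasts, and its log2 change was 2.80 ± 0.15 (SE, n = 3 per group). The values barely spread among KSL libraries, whose range over all 12 was 9.76 to 13.3 CPM. Its row overlaps the gene Trim17 by 708 bases on the same strand, so reads there cannot be told apart. The pseudogene Hist3h2bb-ps lies between them on the minus strand and had at most 0.0962 CPM in KSL and 0.562 CPM in erythroblasts. Since Hist3h2ba was near 0 in KSL and Hist3h2a was not, their 250 bases before the start site are shown, from the RefSeq promoter table (build GRCm38.p6), plus strand, with matches on either strand in capitals: the box CCAAT, the box TATAAA, the element AGATAA and the octamer ATTTGCAT.

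Hist3h2ba, chr11:58948661-58948910: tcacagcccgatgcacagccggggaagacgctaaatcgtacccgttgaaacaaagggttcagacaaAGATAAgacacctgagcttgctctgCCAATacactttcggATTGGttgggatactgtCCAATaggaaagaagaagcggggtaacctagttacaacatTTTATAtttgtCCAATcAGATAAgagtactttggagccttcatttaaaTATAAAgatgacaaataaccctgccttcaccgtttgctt
Hist3h2a, chr11:58954435-58954684: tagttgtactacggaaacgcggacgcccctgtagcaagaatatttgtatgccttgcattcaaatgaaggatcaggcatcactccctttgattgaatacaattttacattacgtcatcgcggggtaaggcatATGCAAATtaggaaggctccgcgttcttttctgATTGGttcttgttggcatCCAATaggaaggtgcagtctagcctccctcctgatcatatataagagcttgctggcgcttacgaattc

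The Hist3h2ba window held 4 CCAAT matches, 2 TATAAA, 2 AGATAA (the core of the site that GATA factors bind) and no octamer, and the Hist3h2a window held 2 CCAAT matches and 1 octamer, with no TATAAA or AGATAA. Over the 62 members with a promoter of 300 bases in the RefSeq table, 85.5% held CCAAT, 56.5% TATAAA, 21.0% the octamer and 21.0% AGATAA, against 37.9%, 14.2%, 1.75% and 11.4% of all 27025 promoters of the same length. CCAAT was in all 6 H1, 18 H2A, 16 H2B and 10 H3 promoters and in 3 of 12 H4 promoters. The octamer was in 7 of 18 H2A and 6 of 16 H2B promoters and in no H1, H3 or H4 promoter. A match is a run of letters and was not tested as a binding site.

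**Figure D3:**
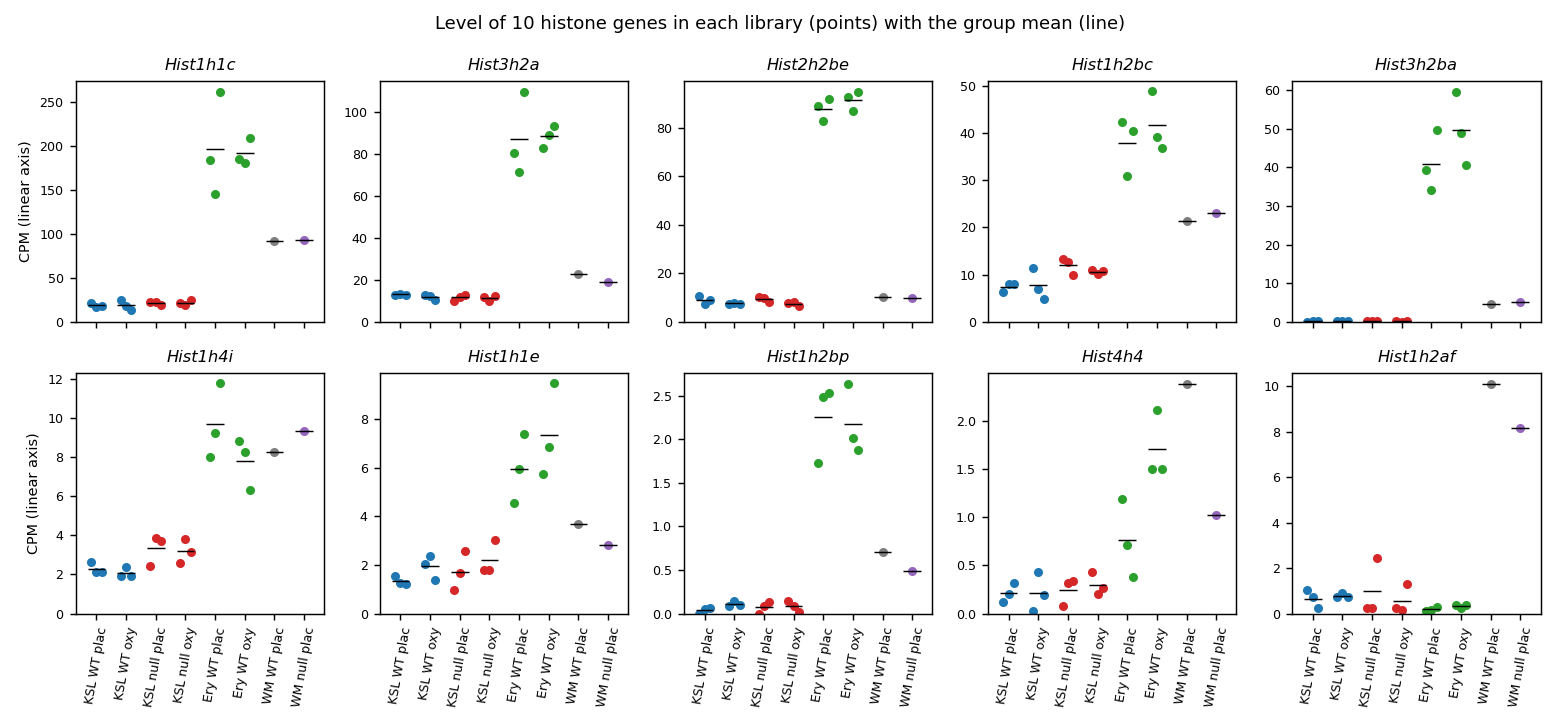
Level of 10 histone genes in CPM (vertical axes on a linear scale from 0, each panel with its own) in every library (points), with the mean of each group (line), for KSL, erythroblasts (Ery) and whole marrow (WM), wild-type (WT) or Fancd2-/- (null), on placebo (plac) or oxymetholone (oxy). Hist3h2ba is at or below 0.161 CPM in all 12 KSL libraries, and Hist1h2af is highest in the 2 marrow libraries at 10.1 and 8.16 CPM.

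Among H1 genes, all 5 that were tested rose in erythroblasts on both diets after the trimmed-mean scaling. On oxymetholone its factors were 1.38 to 1.45 in wild-type KSL and 0.524 to 0.546 in erythroblasts, so smaller rises depend on it. Hist1h1d there had counts of 171, 452 and 32 in KSL libraries of 32.5, 115.5 and 14.4 M reads. In erythroblast libraries of 20.3, 20.8 and 19.7 M reads it had 55, 71 and 90, so before scaling the groups overlapped. Hist1h1c (NM_015786, chr13:23830676-23832236, plus strand) was at 21, 17 and 18.2 CPM in wild-type placebo KSL and 184, 146 and 262 CPM in placebo erythroblasts. Over all libraries its lowest erythroblast value, 146 CPM, stood well above the highest KSL value, 24.9 CPM. Its log2 change was 3.46 ± 0.20 (SE, edgeR adjusted p = 3.46e-09). Hist1h1b, Hist1h1e, Hist1h1a and Hist1h1d, linker genes at a few CPM, rose by 2.50 ± 0.31, 2.20 ± 0.26, 2.11 ± 0.31 and 1.83 ± 0.30 on the log2 scale. The row of Hist1h1e overlaps Hist1h2be on the same strand, so these 2 genes can share reads.

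The 3 H2B genes that passed the minimum in KSL as well all rose on placebo. Hist2h2be (NM_178214, chr3:96025044-96027661, plus strand) was the steadiest: 10.5, 7.4 and 8.92 CPM in wild-type placebo KSL and 89, 82.6 and 91.9 CPM in placebo erythroblasts, a log2 change of 3.37 ± 0.14 (SE, edgeR adjusted p = 3.28e-12). Hist1h2bc (NM_023422, chr13:23776068-23784349, plus strand) was at 6.35, 8.05 and 7.96 CPM in wild-type placebo KSL and 42.3, 30.8 and 40.5 CPM in placebo erythroblasts, with a log2 change of 2.40 ± 0.16. For both genes every erythroblast library was above every KSL library. Hist1h2bp and Hist2h2bb, at 2.25 ± 0.451 and 3.54 ± 0.711 CPM in placebo erythroblasts (SD, n = 3), had fitted log2 changes of 5.72 ± 0.52 and 3.23 ± 0.35, and both passed the minimum only through erythroblasts on placebo. On oxymetholone Hist2h2bb passed in KSL as well and rose by 2.15 ± 0.31 (SE, edgeR adjusted p = 2.51e-05).

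The H4 gene Hist1h4i (NM_175656, chr13:22132685-22133221, minus strand) was at 2.62, 2.13 and 2.1 CPM in wild-type placebo KSL and 8, 9.24 and 11.8 CPM in placebo erythroblasts, a log2 change of 2.14 ± 0.22. It supplied most of the H4 reads in KSL, with a mean of 2.72 CPM against 4.11 for the class. H3 genes stayed low everywhere: Hist1h3g, the highest H3 gene in erythroblasts, had a mean of 1.8 CPM there and 0.182 in KSL. Its fitted log2 change on oxymetholone was 3.78 ± 0.40, and it too passed the minimum only through erythroblasts.

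The H2A class was the most mixed. Hist1h2ac and Hist1h2ak were not called on placebo, with log2 changes of 0.43 ± 0.38 and 0.15 ± 0.50, nor were Hist1h2aa and Hist1h2ak on oxymetholone (0.25 ± 0.29 and 0.36 ± 0.30). Hist1h2af (NM_175661, chr13:23625780-23626172, plus strand) was the only member called lower, on oxymetholone, at 0.338 CPM in erythroblasts and 0.786 in KSL (log2 change -1.23 ± 0.44). It had counts of 4, 3 and 4 in those erythroblast libraries and passed the count minimum only through KSL. Its being lower was thus set by the minimum, and no p is given. It has 20.4% unique windows, so its reads could belong to near copies.

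**Figure D4:**
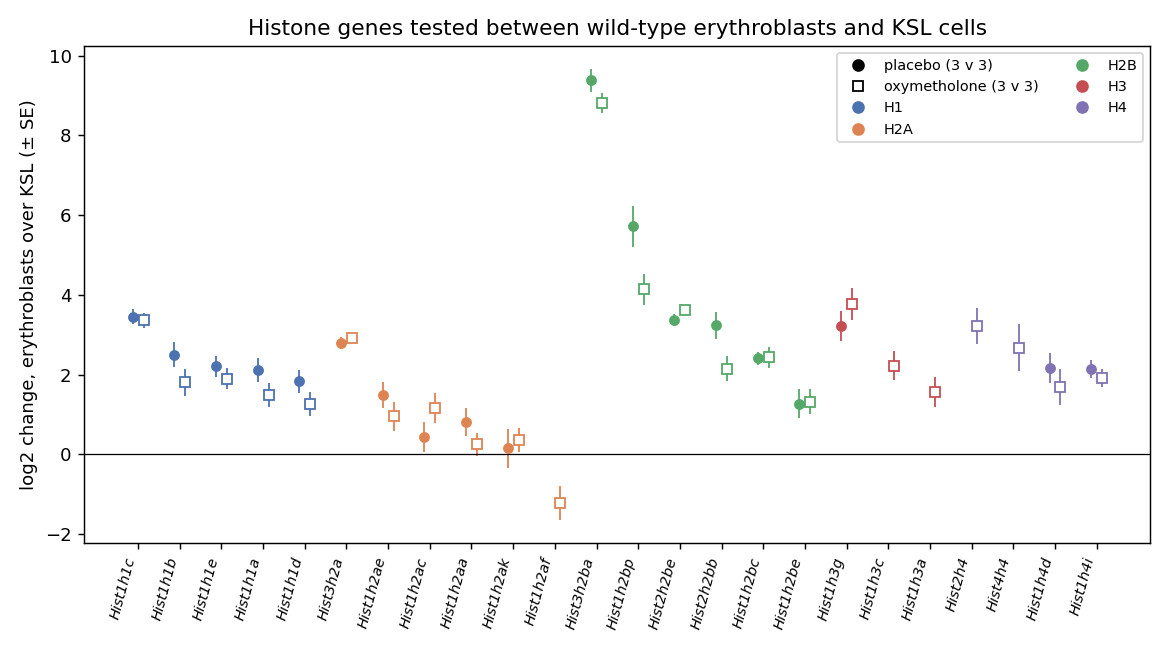
Log2 change between wild-type erythroblasts and wild-type KSL cells (vertical axis, bars are SE) for each member tested on placebo (filled circles) or oxymetholone (open squares), coloured by class, 3 libraries against 3 on each diet. Hist3h2ba is highest at 9.39 and 8.82, and Hist1h2af is below 0 at -1.23.

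The genes that serve histone supply differed between erythroblasts and KSL in both directions on placebo. Of 18 genes of histone mRNA production and turnover, 13 were called higher and 5 lower, with a median log2 change of 1.91. Over all genes tested, 37.2% were called higher and 53.7% lower, so a call alone says little. Slbp, which binds the stem-loop, rose by 3.88, Npat, the coactivator of histone genes, by 2.32, and the cyclins Ccne1 and Ccne2, which switch Npat on, by 6.36 and 5.23. Lsm11 and Lsm10, parts of the U7 particle that cuts histone mRNA after the stem-loop, fell by 1.67 and 1.21, and the nuclease Cpsf3 fell by 2.53. Of 19 histone chaperones 16 were higher and 2 lower (Npm1, -2.21; Nap1l1, -0.61), and Asf1b, which hands over new H3 and H4, rose by 4.84.

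Histones outside the clusters split: 6 of 11 were called higher and 4 lower, where 91% of all genes were called. The repair variant H2afx rose by 3.35, the centromere histone Cenpa by 3.66 and the replacement histone H3f3a by 3.83 on the log2 scale. The macroH2A gene H2afy fell by 5.66, and the replacement linker genes H1fx and H1f0 fell by 5.48 and 1.37. All 22 S phase genes and all 16 mitosis genes listed were higher, with median log2 changes of 2.50 and 3.99. The S phase sum was 22100 to 23800 CPM in erythroblasts and 3220 to 5010 in KSL; its part in the histone levels was not tested.

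For loss of Fancd2 in KSL cells on placebo, edgeR called none of the 29 members tested (1.28% of 13259 genes were called, 0.505% higher and 0.777% lower). The unadjusted p was under 0.05 for 5 members, against 19.6% of all genes. DESeq2 called 1 member (Hist1h2bc) and 6.15% of all genes, limma voom with quality weights 3 members and 11.1% of genes, and limma on the scaled matrix 0 members and 1.34% of genes. The estimates leaned one way: 27 of 29 were above 0, with a median log2 change of 0.62 against -0.01 over all genes. Much of that lean came with 1 library. The median was 0.17 without Fancd2-/- placebo library 3 and 0.65 to 0.96 without any other single library. It was 0.40 after the trend with transcript length was removed. Class medians were 0.93 for 5 H1 genes, 0.88 for 6 H2B, 0.86 for 3 H3, 0.58 for 10 H2A and 0.58 for 5 H4 genes.

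Hist1h2bc was the member with the smallest p. The 3 Fancd2-/- libraries on placebo held 13.2, 12.6 and 10 CPM and the 3 wild-type ones 6.35, 8.05 and 7.96 CPM, so the groups did not overlap. The log2 difference was 0.71 ± 0.24 (SE, n = 3 per group, edgeR adjusted p = 0.133; DESeq2 gave an adjusted p of 0.0421), and it was 0.82 without Fancd2-/- placebo library 3.

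Hist1h1d was high in 2 of the 3 Fancd2-/- libraries. Its values were 1.24, 3.36 and 4.9 CPM in Fancd2-/- placebo libraries 1, 2 and 3, and 1.72, 1.52 and 1.47 CPM in wild-type placebo ones. The Fancd2-/- group thus spanned the wild-type one, and the log2 difference was 1.07 ± 0.45 (edgeR adjusted p = 0.214). Hist1h4i differed by 0.58 ± 0.24 (edgeR adjusted p = 0.211) and Hist3h2a by -0.12 ± 0.15 (edgeR adjusted p = 0.676). Beside these, 7 of 16 mitosis genes and 1 of 22 S phase genes were called higher in Fancd2-/- KSL on placebo, with median log2 differences of 0.79 and 0.44, as were the chaperone Nasp (0.64 ± 0.14) and Cenpa (0.88 ± 0.13). None of the 18 genes of histone mRNA production was called. The summed erythroblast markers were 193 CPM in Fancd2-/- placebo library 2 and 35.1 and 45.7 CPM in the other libraries of that group. Library 3 had the highest sum of 5 stromal markers (64.3 CPM, against 13.4 to 23.7 in the other KSL libraries), the highest S phase sum (5010 CPM, against 3220 to 4180) and the lowest KSL marker sum (2140 CPM, against 2630 to 3470). The part of these in the histone values was not tested.

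On oxymetholone, edgeR called no member between the genotypes (29 tested, 0.128% of genes called, 0.0302% higher and 0.098% lower). The unadjusted p was under 0.05 for 1 member, against 5.57% of all genes, and DESeq2 and both limma fits also called 0. The median log2 difference was 0.04, with 16 of 29 above 0. Hist1h4i was at 2.6, 3.82 and 3.17 CPM in Fancd2-/- and 1.93, 2.36 and 1.92 CPM in wild-type libraries, without overlap, and differed by 0.63 ± 0.24 (edgeR adjusted p = 0.74). Hist1h2bc differed by 0.45 ± 0.23 (edgeR adjusted p = 0.968), Hist1h1c by 0.20 ± 0.18, Hist1h1d by -0.23 ± 0.44, Hist3h2a by -0.07 ± 0.15 and Hist1h1a by -0.20 ± 0.42. Of these, only Hist1h4i had groups that did not overlap. The 2 genotype comparisons use different libraries but one estimate of the spread.

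Oxymetholone itself was compared within pairs of libraries sorted at one flow cytometer setting. In Fancd2-/- KSL, edgeR called none of 29 members (0% of genes were called), and DESeq2 and both limma fits called 0. For 1 member the unadjusted edgeR p was under 0.05, against 6.81% of all genes. The median log2 change was -0.11, with 9 of 29 above 0. Hist2h2be was lower on oxymetholone in all 3 pairs, by -0.43, -0.28 and -0.36 on the log2 scale. Its levels were 7.56, 8.13 and 6.43 CPM on oxymetholone and 10.2, 9.89 and 8.27 CPM on placebo, and the change was -0.37 ± 0.16 (edgeR adjusted p = 0.688). Hist1h1e was above 0 in all 3 pairs (0.89, 0.13 and 0.24), with a change of 0.36 ± 0.29 (edgeR adjusted p = 0.712).

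In wild-type KSL, edgeR again called none of 29 members (0% of genes), with 3 at an unadjusted p under 0.05, against 2.69% of all genes. DESeq2 called 0 and limma on the scaled matrix 0. Limma voom called 5, all higher, where it called 0.528% of all genes higher and 1.39% lower. The median log2 change was 0.35, with 21 of 29 above 0. By the smallest p among members with a mean of at least 1 CPM, the first were linker genes: Hist1h1d 0.80 ± 0.28 (unadjusted p = 0.0143, edgeR adjusted p = 0.999), Hist1h1b 0.83 ± 0.37 and Hist1h1a 0.75 ± 0.35. For Hist1h1d the values were 3.79, 2.83 and 1.54 CPM on oxymetholone and 1.72, 1.52 and 1.47 CPM on placebo, and pairs 1 and 2 differed while the other was at 0.07. Hist2h2be, Hist3h2a and Hist1h4i were the members below 0 with the smallest p, at -0.20 ± 0.16, -0.12 ± 0.15 and -0.11 ± 0.24.

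The difference of the oxymetholone effects between genotypes was tested as an interaction, and edgeR called no member (0% of genes). DESeq2 and both limma fits also called 0. An unadjusted edgeR p under 0.05 was found for 3 members, against 3.45% of all genes. The median was -0.57, with 24 of 29 below 0, and -0.24 without Fancd2-/- pair 3. Hist1h1d had -1.24 ± 0.40, Hist1h1b -1.28 ± 0.52 and Hist1h1a -1.03 ± 0.49 on the log2 scale, each at an edgeR adjusted p of 0.953. These linker genes were also high in Fancd2-/- placebo library 3, but for Hist1h1b its oxymetholone partner was as high. Hist1h1b was at 0.602, 1.89 and 2.63 CPM in Fancd2-/- placebo libraries 1, 2 and 3. The partners on oxymetholone held 0.674, 0.699 and 2.64 CPM, so only pair 2 fell.

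In wild-type erythroblasts oxymetholone gave no called member by edgeR (25 tested, 0% of 9694 genes called), and DESeq2 and both limma fits called 0. An unadjusted edgeR p under 0.05 was found for 2 members, against 1.27% of all genes. The median log2 change was 0.12, with 16 of 25 above 0. Hist4h4 (NM_175652, chr6:136752589-136752900, minus strand), the only Hist4 gene, was at 1.5, 2.11 and 1.5 CPM on oxymetholone and 1.19, 0.711 and 0.375 CPM on placebo. The groups did not overlap, but the placebo values rest on counts of 11, 8 and 4, and the change was 1.18 ± 0.41 (edgeR adjusted p = 1). Hist3h2ba was at 59.4, 49 and 40.7 CPM on oxymetholone and 39.2, 34.1 and 49.6 CPM on placebo, a change of 0.26 ± 0.16. Hist1h2ac differed by 0.66 ± 0.31, Hist1h4i by -0.33 ± 0.18, Hist1h4d by -0.37 ± 0.34 and Hist1h2aa by -0.23 ± 0.29.

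Whole marrow had 1 library per genotype, so ratios there have no replicate check and the 95% intervals (exact binomial) cover counting error only. Of 38 members with at least 50 counts over both libraries, 11 were lower in Fancd2-/- marrow by over 1.5-fold and 0 were higher; 1.22% of 13114 genes were lower and 1.56% higher by that measure (2.78% in all). The median ratio of Fancd2-/- to wild-type was 0.802 over these members and 1 over all genes. Among members with the most reads, Hist1h1c had a ratio of 1.02 (0.986 to 1.05), Hist1h2bc 1.07 (1 to 1.14) and Hist2h2be 0.974 (0.885 to 1.07). The H2A genes with the most reads were lower: Hist3h2a had 0.837 (0.784 to 0.895), Hist1h2af 0.811 (0.733 to 0.897) and Hist1h2aa 0.844 (0.758 to 0.94). Hist1h4i had 1.13 (1.02 to 1.25) and Hist1h2be 1.2 (1.03 to 1.4).

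All 11 lower members were among the 26 without a polyadenylation signal at the row's end, and ratios of the 11 with the signal ran from 0.701 to 1.2. This split partly followed read counts, since Hist1h1c, Hist1h2bc, Hist3h2a and Hist2h2be, with the most reads in marrow, all had the signal. The part of read counts was not tested. Of the lower members only Hist1h2bl, at 0.636 (0.358 to 1.11), had an interval that reached past 1. Hist4h4 had a ratio of 0.43 (0.332 to 0.553) from 91 counts in Fancd2-/- and 199 in wild-type marrow. The linker gene Hist1h1b had 0.542 (0.443 to 0.661), Hist2h2bb 0.56 (0.451 to 0.693), Hist1h3a 0.537 and Hist1h4b 0.372 (0.206 to 0.645, from 19 and 48 counts). S phase and mitosis sums in the same libraries were 6170 and 5840 CPM in wild-type and 5940 and 5680 CPM in Fancd2-/- marrow, and neutrophil markers 117000 and 125000 CPM; their part in these ratios was not tested.

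Some H2A genes had their highest level in marrow. Hist1h2af was at 10.1 (wild-type) and 8.16 (Fancd2-/-) CPM in marrow, at most 0.376 CPM in any erythroblast library and 0.175 to 2.43 CPM in KSL. Hist1h2aa, an H2A gene known from the male germ line, was at 8.62 or 7.28 CPM in marrow, 1.58 to 2.76 in erythroblasts and 0.637 to 3.42 in KSL, and 97.9% of its windows are unique. Hist1h2ak and Hist1h2an were also higher in both marrow libraries than in any sorted library: 5.61 and 5.88 CPM against at most 2.27 for Hist1h2ak, and 2.35 and 3.49 CPM against at most 0.899 for Hist1h2an. The last is 14.3% unique. The difference between marrow and the sorted cells was not tested, and the marrow libraries hold erythroid, neutrophil and other cells.

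**Figure D5:**
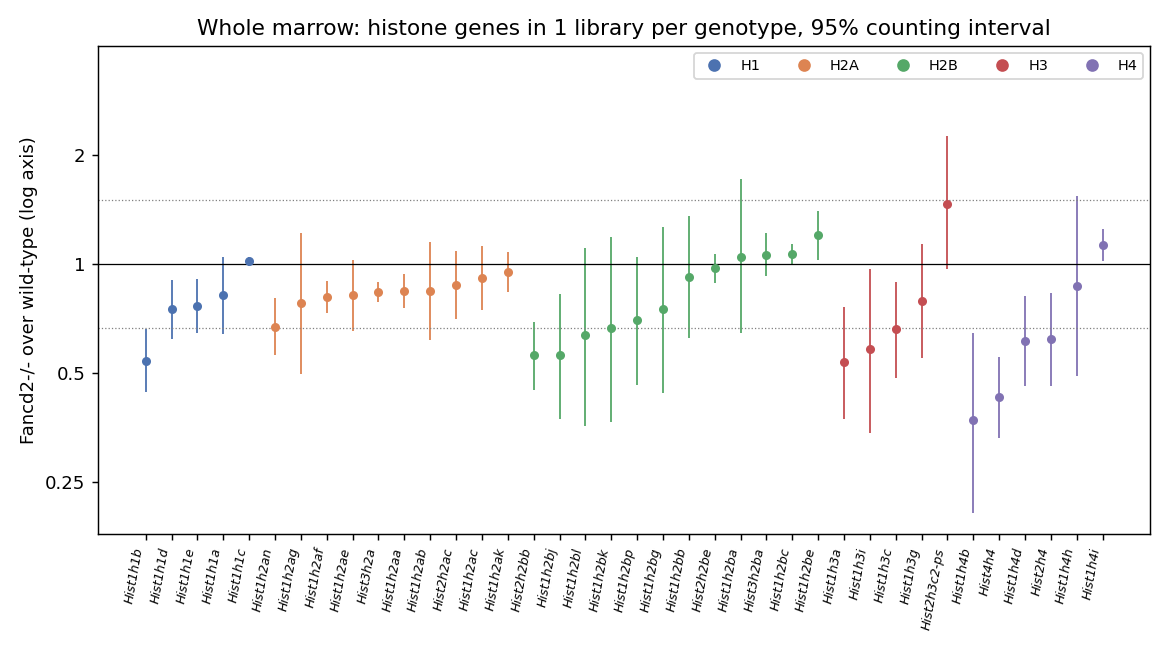
Ratio of the Fancd2-/- to the wild-type whole marrow library (vertical log axis) for the 38 histone genes with at least 50 counts, coloured by class, bars showing 95% counting intervals and dotted lines 1.5-fold. Hist1h4b is lowest at 0.372 and 7 members lie above 1.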

How the data were processed

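Per the submitters' processing notes, the authors used Bowtie, mm9 and edgeR. Their versions, the counting strand and the handling of multiply mapping reads are not stated in the sources used here. The authors deposited counts per RefSeq transcript, and a rounded matrix, here a score, in which each library was scaled to a common total, per the values. Levels are CPM with TMM factors over all 20 libraries. Tests used edgeR 4.0.16 in R 4.3.3 (filterByExpr by group, robust quasi-likelihood, all 12 KSL libraries in 1 fit for KSL comparisons), with Benjamini-Hochberg adjustment over all genes tested and a call at 0.05; alternatives used DESeq2 1.42.0, limma 3.58.1 and other settings. The test was checked on simulated counts.

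The oxymetholone comparisons in KSL kept the flow cytometer pair as a block, as the study's design text pairs these libraries; deviations within the 6 pairs correlated at r of -0.06 to 0.27 over genes. The design text names 1 paired library as no sample is labelled; it was taken as Fancd2-/- placebo replicate 1. Members and gene lists were chosen with earlier results of these data known. Named genes were, per comparison, up to 12 called members with groups apart and a mean of at least 1 CPM, or without calls the 3 smallest p in each direction; 5 genes were always followed. The list of RNAs without a tail had 0 of 13 named genes in the table and served no check. p-values measure only the spread between these libraries. Stem-loops, signals and unique windows were read from the mm9 genome.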

Additional observations from a re-analysis of the deposited data

How the results depend on the processing

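Without the low-count filter the members called between erythroblasts and KSL were 39 of 58 on placebo and 36 of 58 on oxymetholone, beside 75.9% and 75.5% of all genes; on the scaled matrix they were 10 and 11, beside 92.5% and 93.5% (16 and 22 of the original calls recurred without the filter, 9 and 9 on the scaled matrix). Leaving out 1 library gave 17 to 20 and 22 to 23. For Fancd2 loss on placebo DESeq2 called 1 member and limma voom 3, and voom called 5 for oxymetholone in wild-type KSL; the cause was not tested. Without the replicate block, 0 members were called in either oxymetholone comparison or the interaction. The filter taken from the design matrix was added after the data were seen and changed no member call. Median-of-ratios scaling moved the median of all genes between erythroblasts and KSL from -0.67 to -0.51. Summed levels without TMM were 101 CPM in KSL, 284 in erythroblasts, 193 in wild-type and 180 in Fancd2-/- marrow; the scaled matrix gave 218, 152 and 141 for the last 3, and summing all rows of a symbol gave 235 and 220 in marrow. Of 720 values of named members under the alternatives, 694 kept direction and side of the threshold and 16 turned, none of them called: with 1 library or pair left out, Fancd2 loss on oxymetholone ran from -0.68 to 0.06 for Hist1h1d, -0.42 to 0.15 for Hist1h1a and -0.13 to 0.02 for Hist3h2a. Oxymetholone in Fancd2-/- KSL ran from -0.16 to 0.40 for Hist1h2ae, -0.76 to 0.02 for Hist1h1b and -0.13 to 0.12 for Hist1h1c (-0.07 with voom, 0.00 with the design filter). In wild-type KSL Hist1h4i ran from -0.27 to 0.05 (0.09 with voom), and for the interaction Hist3h2a ran from -0.11 to 0.12, reversing also to -0.03, and Hist1h4i from -0.13 to 0.21, reversing also to -0.05 and -0.03 (-0.11 with voom). Depth limits the members below 1 CPM.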
